A study of Ovis aries with 10 samples.

Results

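The miR-376 family was measured with 8 of the 152 miRNA probes of a custom ovine array, chosen as every probe whose name starts with oar-miR-376. They belong to 5 hairpins, miR-376a to miR-376e. Both arms are present for miR-376a, miR-376b and miR-376c, the 3p arm alone for miR-376e, and a single probe with no arm in its name for miR-376d. The study also uses the name miR-376 with no letter or arm, and which probe that means is not settled by the deposited values, so each probe is described here by itself.

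Lung tissue came from female merino sheep aged 9 months by the labels, in which 1 caudal segment had been infused with bleomycin, a drug that injures the lung and leads to scarring, and the other with saline. The 5 sheep on the arrays were chosen by the study for the most severe fibrosis, so they are not a random set of treated animals. From each sheep, numbered 2, 3, 6, 7 and 10, the segment labelled Fibrosis and the segment labelled Normal were hybridised with 1 dye, which gave 10 arrays. In sheep 6, 7 and 10 the labels name the right segment as fibrotic, while per the methods it was the left one that received bleomycin in each animal. The labels were used, and values with the left side coded as treated are given where they turn the direction of a miR-376 probe. For arm differences and for single miRNAs outside the family, no changes with that coding are given.

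Each miRNA hairpin is cut by Dicer into a duplex with a 5p and a 3p strand, and the strand kept by Argonaute pairs with messenger RNAs through its seed and lowers their translation or stability. The miR-376 hairpins lie in the large imprinted miRNA cluster of the DLK1-DIO3 region, which is read from the maternal chromosome, is strongly expressed in embryo and brain and is the site of the callipyge muscle trait of sheep. Members of the family have almost the same mature sequence, so that array probes for them can bind each other's target, and their primary transcripts are known for adenosine-to-inosine editing within the seed. In the RefSeq sheep assembly ARS-UI_Ramb_v3.0 the 5 genes were matched by hairpin name on chromosome 18, in a run of 55 miRNA genes. Their order there was MIR3958, MIR376E, MIR376C, MIR376D, MIR654, MIR376B, MIR376A and MIR1185. Hence MIR376E and MIR376C are neighbours, while MIR654 lies within the group.

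The summed miRNA intensity was close to constant between arrays, from 138979 to 146225. The control probes were less even, with a mean log2 signal between 7.59 and 9.85 that was highest in the Normal segments of sheep 6 and sheep 10. Precision is limited by the number of arrays. A probe was called dim when its mean log2 intensity over the 10 arrays was under 5. The array covered 3 of 6 epithelial, 1 of 2 smooth muscle, 1 of 3 striated muscle, 2 of 5 blood and 3 of 3 mesenchymal marker miRNAs, and 0 of 3 for endothelium, liver and neuron. No marker passed an adjusted p of 0.05 in limma between the segments. The epithelial markers miR-200a, miR-200b and miR-200c, which are characteristic of epithelium, summed to between 2400 and 4319 in Normal and between 3496 and 6712 in Fibrosis segments, at a median log2 fold change of 0.58. The mesenchymal list summed to between 5818 and 17778 in Normal and between 9299 and 19841 in Fibrosis segments, at a median log2 fold change of 0.49. Its members did not move together, with log2 fold changes of 0.73 for miR-21, 0.49 for miR-199a-3p and -0.41 for miR-218a. The summed blood list ran from 2395 to 3954 against 1656 to 3641, smooth muscle miR-143 from 4395 to 18181 against 6509 to 14384, and striated muscle miR-133 from 35.2 to 162 against 23.5 to 49.3, with log2 fold changes of -0.23 (median), 0.056 and -0.86. Their part in the values below was not tested.

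Of the 8 miR-376 probes, miR-376c-3p and miR-376e-3p were not dim, and the other 6 were dim, whereas 38.8% of all miRNA probes were not dim. The mean log2 intensity was 7.84 for miR-376c-3p and 6.53 for miR-376e-3p. Among the dim probes it was 4.71 for miR-376b-5p, 4.63 for miR-376d, 4.46 for miR-376b-3p, 3.73 for miR-376a-3p, 3.29 for miR-376a-5p and 1.60 for miR-376c-5p. Probes differ in affinity, so this order is of signals and not of the amount of each miRNA.

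**Figure D1:**
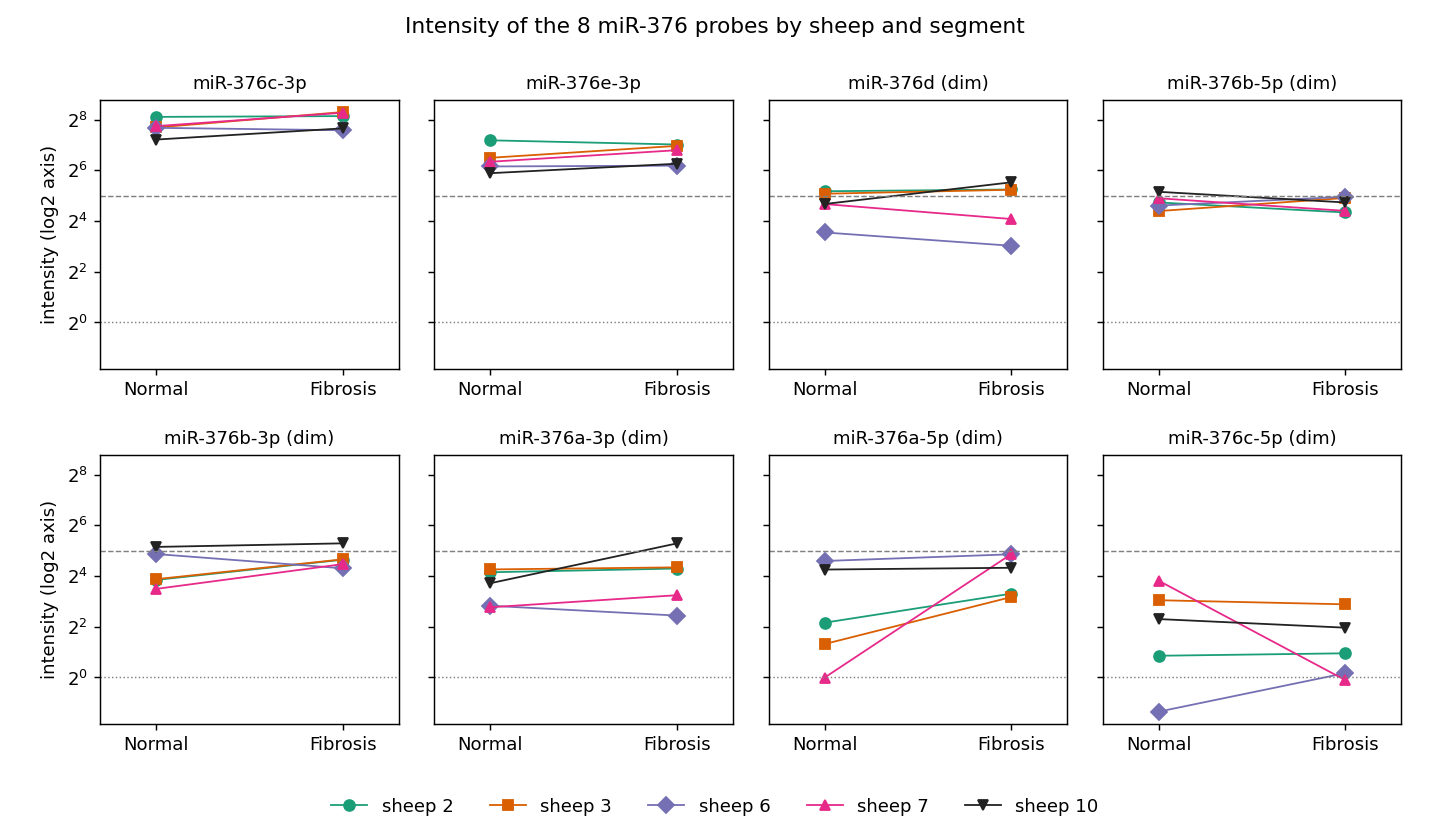
Intensity of each miR-376 probe on a log2 axis, with a line for each of the 5 sheep from its Normal to its Fibrosis segment. The dotted line marks the floor of 1 and the dashed line 32, which is a log2 value of 5. Only miR-376c-3p and miR-376e-3p lie above the dashed line in all 10 segments.

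No change between Fibrosis and Normal segments was called for any probe of the family, which with 5 sheep does not show that none exists. The main fit set each mean change against the spread of the within-sheep changes, which limma draws toward a value shared by all 152 miRNAs. In limma with the sheep as a block, 0 of the 8 passed an adjusted p of 0.05, against 0 of all 152 miRNAs (0%), and the smallest adjusted p of the family was 0.484. At an unadjusted p under 0.05 the count was 0 of 8, where 18 of all 152 miRNAs (11.8%) were below it. The methods' t-test was made for each sheep separately, which was not run here. The methods' t-test over the animals instead, paired or unpaired, gave 0 of the 8 at either threshold. Under other settings miR-376a-5p had an unadjusted limma p of 0.0186 after centring on control probes, 0.0478 after centring on the 75th percentile and 0.0190 in sheep 2 and 3 alone. For miR-376b-3p it was 0.0216 without sheep 6 and 0.0186 in sheep 2 and 3 alone, and none of these had an adjusted p under 0.05. The number of all 152 miRNAs at an unadjusted p under 0.05 was 13 on control probes and 19 on the 75th percentile. It was 22 in sheep 2 and 3 alone, which are only 2 animals, and 26 without sheep 6. Groups of segments overlapped for all 8 probes, while 2 of all miRNAs (1.32%) were higher in every Fibrosis than in any Normal segment. The mean change was above 0 for 5 of the 8 probes, against 46.1% of all miRNAs, with a median log2 fold change of 0.27 against -0.021 for all 152. The family median was 0.14 without sheep 10, 0.15 after quantile normalization, 0.11 after centring on the median miRNA, 0.48 after centring on control probes, 0.043 with a floor of 32, 0.13 in sheep 2 and 3 alone and 0.025 with the left side coded as treated. In lung tissue taken as a whole, fewer cells of a type and less RNA per cell cannot be told apart.

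miR-376c-3p was the brightest probe of the family. Its intensity in the Normal segments of sheep 2, 3, 6, 7 and 10 was 276, 206, 205, 214 and 148. In the Fibrosis segments it was 282, 315, 191, 308 and 201 in the same order of animals. Sheep 3, 7 and 10 were higher in the fibrotic segment, sheep 2 was nearly level and sheep 6 slightly lower, and the groups overlapped. The Normal segments averaged 209.8 ± 45.2 (SD, n = 5), and the Fibrosis segments averaged 259.5 ± 59.0 (SD, n = 5). The log2 fold change was 0.30 (standard error 0.16, 95% interval from -0.096 to 0.70), at a limma adjusted p of 0.509 (oar-miR-376c-3p). The exact two-sided sign-flip permutation test over the 5 sheep gave p = 0.188, where 5 sheep cannot go below 0.0625.

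miR-376e-3p, from the neighbouring hairpin, gave a similar picture. For sheep 2, 3, 6, 7 and 10 its intensity was 145, 90.1, 71.1, 80.9 and 59.2 in the Normal segments. The Fibrosis segments had 129.6, 125, 72.8, 111 and 76.6. Sheep 3, 7 and 10 were again the animals with a higher fibrotic segment, sheep 6 was level, and in sheep 2 the fibrotic segment was lower. The Normal segments averaged 89.3 ± 33.4 (SD, n = 5) and the fibrotic ones 103 ± 26.7 (SD, n = 5), with a wide overlap. The log2 fold change was 0.23 with a standard error of 0.15, a 95% interval from -0.14 to 0.61 and a limma adjusted p of 0.540 (oar-miR-376e-3p). After quantile normalization it was 0.60, with an unadjusted p of 0.00948 and a limma adjusted p of 0.412. In that setting 3 of all 152 miRNAs had an unadjusted limma p under 0.01. With the left side coded as treated, the changes were -0.047 for miR-376c-3p and -0.11 for miR-376e-3p.

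The signal of both bright probes differed between animals as well as between segments. For miR-376c-3p the standard deviation of the sheep means was 0.29 on the log2 scale and that of the within-sheep changes 0.31. For miR-376e-3p these were 0.42 and 0.28. Both were lowest in the Normal segment of sheep 10, one of the arrays with high control probes. Over the 10 arrays the correlation with the mean log2 control signal was r = -0.56 (rho = -0.66) for miR-376c-3p and r = -0.56 (rho = -0.60) for miR-376e-3p, as a description over arrays that come in pairs from 5 sheep. Without the 2 arrays farthest from the median control signal, r was -0.49 and -0.41. When the arrays were aligned on their control probes, the changes were 0.51 and 0.44, with the median of all miRNAs at 0.19. Centring on the median miRNA gave 0.15 and 0.078, with the median of all miRNAs at -0.18.

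miR-376d, dim and without a named arm, had intensities of 36.1, 33.7, 11.7, 25.5 and 25.5 in the Normal segments of sheep 2, 3, 6, 7 and 10. The Fibrosis segments had 37.9, 37.6, 8.14, 16.9 and 46.1 in the same order. Sheep 6 was the lowest animal in both segments, sheep 10 was higher and sheep 7 lower in the fibrotic segment, and sheep 2 and 3 barely differed. The log2 fold change of -0.0067 came with a standard error of 0.25 and a 95% interval from -0.63 to 0.62, so that a change of either sign up to that size is compatible with these arrays. Because it lay so near 0, its sign differed between scalings, with 0.20 after centring on control probes and -0.16 after centring on the median miRNA.

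The miR-376a hairpin was dim on both arms. The 3p arm had 17.8, 19.2, 7.11, 6.82 and 13.2 in the Normal and 19.7, 20.3, 5.43, 9.48 and 39.1 in the Fibrosis segments of sheep 2, 3, 6, 7 and 10. Most of its log2 fold change of 0.38 (standard error 0.30) came from sheep 10, where it was 1.57, and it was 0.079 without that animal and -0.0083 after quantile normalization. The groups overlapped, and sheep 6 and 7 were low in both segments.

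The 5p arm of miR-376a had the largest mean change of the family. Its intensities were 4.47, 2.50, 24.2, 0.998 and 19.1 in the Normal segments of sheep 2, 3, 6, 7 and 10. In the Fibrosis segments they were 9.89, 9.01, 29.0, 29.1 and 20.1. The fibrotic segment was higher in all 5 sheep, which was the case for 13 of all 152 miRNAs (8.55%), but by little in sheep 6 and 10, whose Normal segments were above the Fibrosis segments of sheep 2 and 3. No probe of the family was lower in the fibrotic segment of all 5 sheep, as 8 of all miRNAs (5.26%) were. The log2 fold change was 1.64 with a standard error of 0.75, a 95% interval from -0.24 to 3.52 and a limma adjusted p of 0.484 (oar-miR-376a-5p). The exact two-sided sign-flip permutation test gave p = 0.0625, the smallest that 5 sheep allow. Sheep 7 alone had a log2 fold change of 4.86, starting from a Normal value that was raised to the floor of 1, and without it the mean was 0.83. It was -0.44 with the left side coded as treated. The signal tracked the control probes in the opposite sense to miR-376c-3p, with r = 0.57 (rho = 0.56) over the 10 arrays and r = 0.65 without the 2 farthest.

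miR-376b was dim on both arms, and the 3p signal was higher in the fibrotic segment of 4 of 5 sheep, the 5p signal in 2 of 5. The 3p intensities were 14.4, 14.7, 29.2, 11.3 and 35.5 in the Normal and 25.0, 25.3, 19.8, 22.2 and 39.1 in the Fibrosis segments of sheep 2, 3, 6, 7 and 10. Sheep 2, 3 and 7 had a low Normal segment and a log2 fold change between 0.78 and 0.98, and sheep 6 went the other way by -0.56. The 3p signal was highest among Normal segments in sheep 6 and 10, the arrays with the highest control signal. Its correlation with the mean log2 control signal was r = 0.56 (rho = 0.47) over the 10 arrays, and r = 0.77 without the 2 farthest. The mean log2 fold change was 0.43 ± 0.27 (SE) at a limma adjusted p of 0.530 (oar-miR-376b-3p), and without sheep 6 it was 0.67 at a limma adjusted p of 0.274. With a floor of 32 the change of the 3p arm was 0.028. The 5p arm stayed between 20.2 and 35.6 on all 10 arrays, the narrowest range of the family at 1.76-fold, and its log2 fold change of -0.090 had a standard error of 0.21 (oar-miR-376b-5p).

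miR-376c-5p, the partner of the brightest strand, was near the floor. Its intensity was 1.81, 8.27, 0.394, 14.0 and 4.94 in the Normal and 1.94, 7.39, 1.13, 0.929 and 3.90 in the Fibrosis segments of sheep 2, 3, 6, 7 and 10, and 2 of these values were below 1. Its mean log2 fold change of -0.81, with a standard error of 0.66, rested on sheep 7, which changed by -3.81, and it was -0.058 without that animal.

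**Figure D2:**
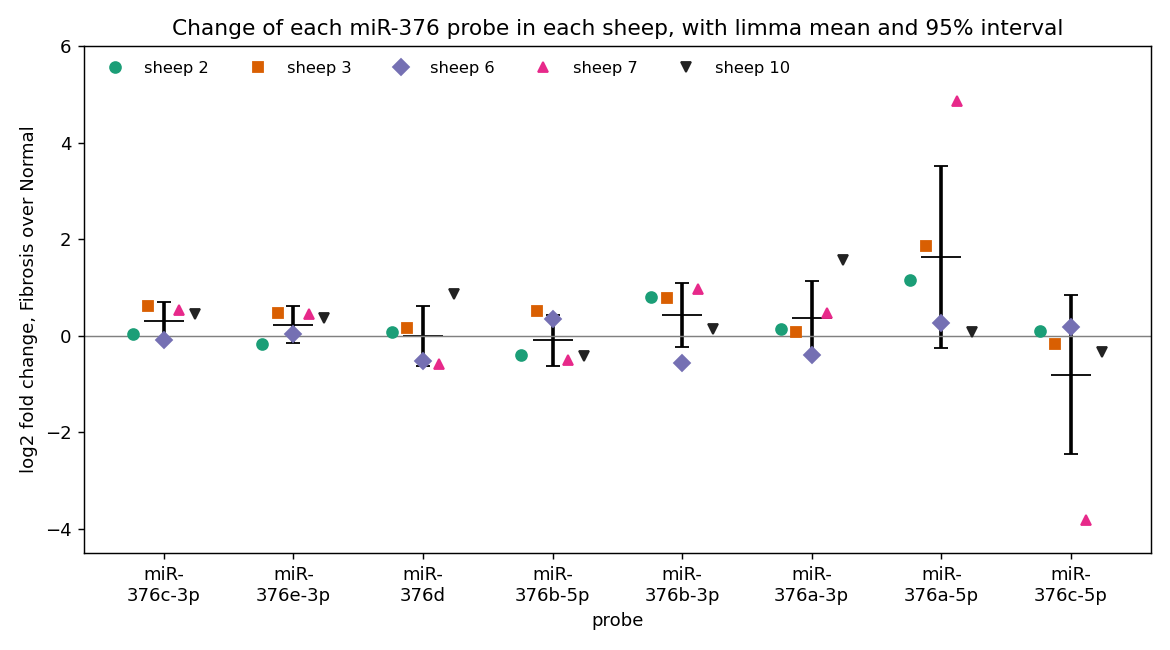
Log2 fold change of the Fibrosis over the Normal segment in each of the 5 sheep (coloured symbols) for each miR-376 probe, with the limma mean and its 95% interval in black. All 8 intervals include 0, and sheep 7 has the most extreme change of both miR-376a-5p (4.86) and miR-376c-5p (-3.81).

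Taken by arm, the 4 probes of 3p arms had mean changes above 0, with a median log2 fold change of 0.34, except that miR-376a-3p was at -0.0083 after quantile normalization and 3 of them, miR-376a-3p, miR-376c-3p and miR-376e-3p, were below 0 with the left side coded as treated. Of the 3 probes of 5p arms, 1 was above 0 and 2 were below. Neither group held a probe with an unadjusted p under 0.05 in limma.

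Arm use was compared as the log2 difference of 3p minus 5p on 1 array, which is free of scaling by a constant, and only its change between segments of a sheep was read. For miR-376a the mean change of this difference was -1.26, with -0.997, -1.77, -0.65, -4.39 and 1.50 for sheep 2, 3, 6, 7 and 10. The value was below 0 in 4 of 5 sheep, farthest in sheep 7, and above 0 in sheep 10. With the left side coded as treated, the change of each hairpin would swap its sign in sheep 6, 7 and 10. No mean under that coding is given, so the directions of the mean arm changes hold for the labels only.

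For miR-376b the mean change of the arm difference was 0.52, made up of 1.19, 0.26, -0.91, 1.47 and 0.56 for the same animals, and it was 0.28 without sheep 7, 0.87 without sheep 6 and 0.059 with a floor of 32. For miR-376c it was 1.11, with 4.34 in sheep 7, and it was 0.30 without that animal. With a floor of 32 the mean for miR-376c was 0.30 and came from the 3p arm only, since all 5p values lay below that floor. The exact two-sided sign-flip permutation test over 5 sheep gave p = 0.25 for miR-376a, 0.3125 for miR-376b and 0.25 for miR-376c, each 0.3125 after Benjamini-Hochberg adjustment over the 3 hairpins. For miR-376a the mean change was -0.48 without sheep 7. With a floor of 32 it was 0.058, which came only from the 3p intensity of 39.1 in the Fibrosis segment of sheep 10. All other values of both arms lay below that floor.

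Among the 28 pairs of miR-376 probes, the log2 intensities of 2 pairs had r of at least 0.8 over the 10 arrays, 14 pairs were below 0, and the median r was -0.0095. After centring on the median miRNA, 2 pairs were at least at 0.8, 9 were below 0 and the median r was 0.24. The arrays come in pairs from 5 sheep and share dye and platform, so these values describe the arrays and carry no p. The closest pair was miR-376c-3p and miR-376e-3p, with r = 0.92 and rho = 0.84. It was 0.92 on deviations from the condition means, 0.90 after centring on the median miRNA and 0.94 without the 2 arrays farthest from the median of miR-376c-3p. The log2 difference between both probes stayed between 0.92 and 1.52. Of the 1711 pairs among the 59 miRNA probes that were not dim, 1.58% had an r as high.

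The other close pair was miR-376a-3p and miR-376d, with r = 0.88 and rho = 0.94, and r = 0.84 without the 2 farthest arrays. Of the 4186 pairs among dim miRNA probes with a varying signal, 2.22% reached this value. Their genes are not neighbours, since MIR654 and MIR376B lie between them. The pairs were chosen after the correlations were seen, and how far probes of such like sequence read each other's target was not tested. miR-376a-5p and miR-376b-3p had r = 0.79, which was 0.48 without the 2 farthest arrays, and miR-376a-5p and miR-376c-5p had r = -0.74, which was -0.36 without them. Between the arms of 1 hairpin r was -0.058 for miR-376a, 0.14 for miR-376b and -0.18 for miR-376c, and for miR-376b it was 0.59 after centring on the median miRNA and 0.38 without the 2 farthest arrays.

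**Figure D3:**
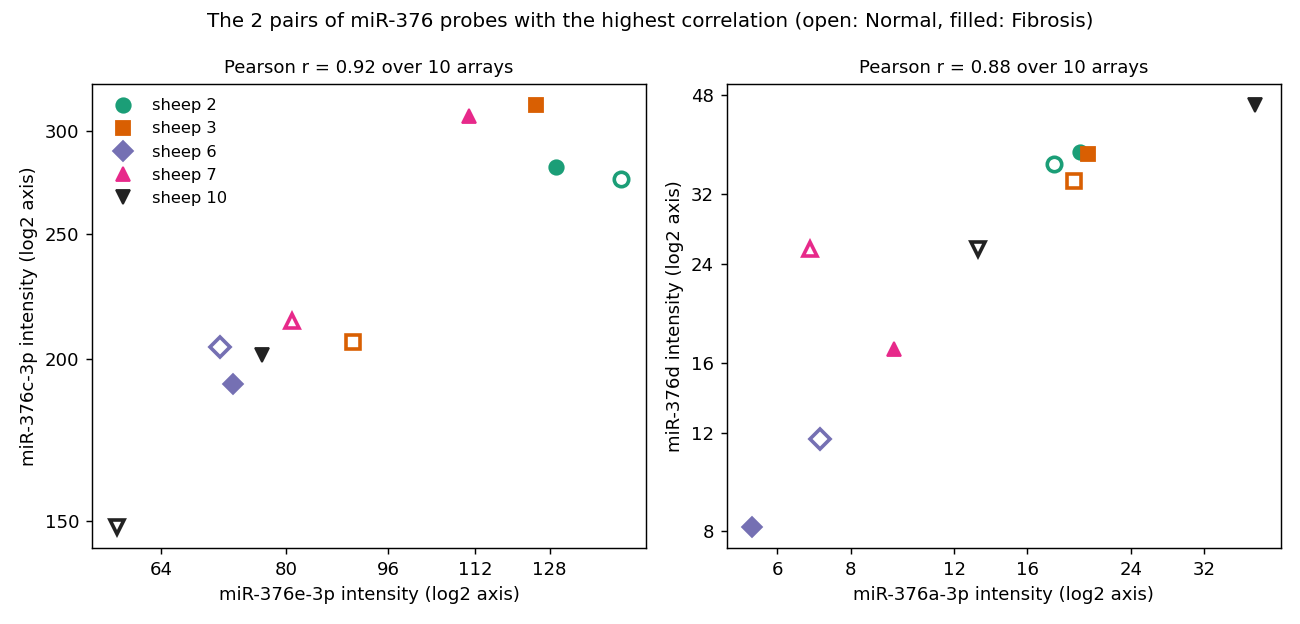
Intensity of miR-376c-3p against miR-376e-3p (left) and of miR-376d against miR-376a-3p (right) on log2 axes, with 1 symbol for each sheep, open for Normal and filled for Fibrosis segments. Both pairs rise along a line over the 10 arrays, and sheep 6 lies at the lower end for miR-376d and miR-376a-3p in both segments.

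**Figure D4:**
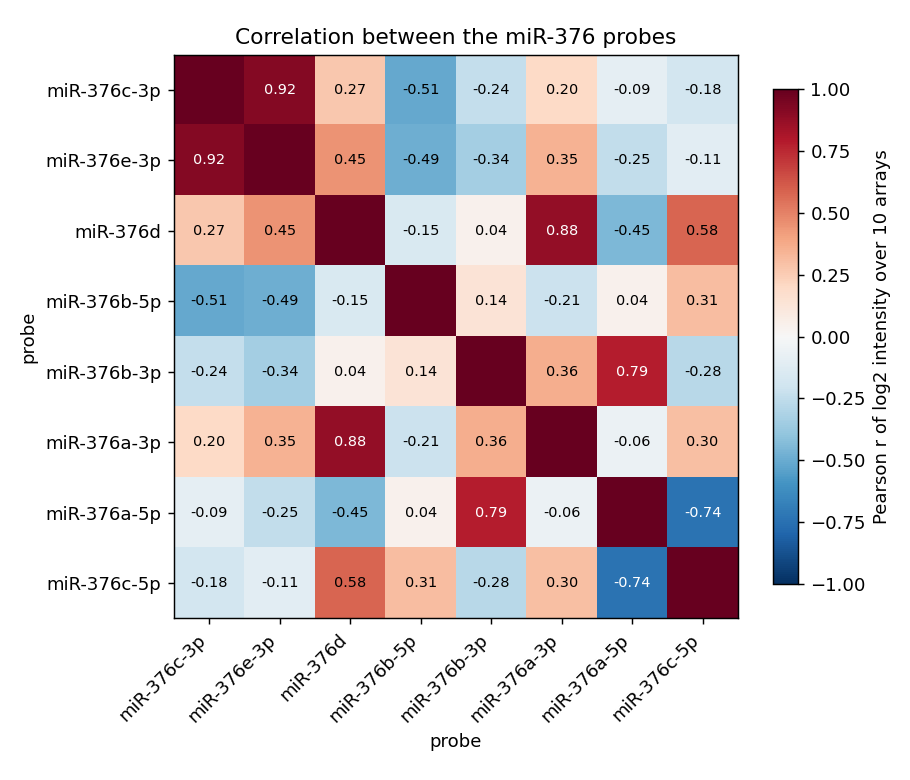
Pearson r of log2 intensity over the 10 arrays for each pair of the 8 miR-376 probes, from blue (-1) through white (0) to red (1). The values of 0.92 and 0.88 stand out, and the remaining pairs lie between -0.74 and 0.79.

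Outside the family, the 5 of 57 other miRNAs that were not dim and had the highest r with the mean of miR-376c-3p and miR-376e-3p over the 10 arrays were miR-148a, miR-125b, miR-23b, miR-23a and miR-150. miR-148a, a miRNA of the miR-148/152 family that shares its seed with miR-152, had r = 0.78 (rho = 0.55), and r = 0.88 without the 2 farthest arrays. Its log2 fold change was 0.34 with a standard error of 0.11 (oar-miR-148a). The other 4 had r between 0.61 and 0.69 and a higher rho than miR-148a, between 0.64 and 0.72. Without the 2 farthest arrays their r was between 0.45 and 0.57. Their log2 fold changes were between -0.30 and -0.015. On deviations from the condition means, r was 0.75 for miR-148a and between 0.67 and 0.78 for the other 4. After centring on the median miRNA, r was 0.70 for miR-148a and between 0.36 and 0.44 for the other 4. None of the 5 reached the r between miR-376c-3p and miR-376e-3p. None belongs to the DLK1-DIO3 cluster, which held only 7 of the 57 miRNAs compared.

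The array holds 92 other probes of the DLK1-DIO3 list, of which 7 were not dim. Their median log2 fold change was -0.00081, with 45 above and 46 below 0, compared with 0.27 for the 8 miR-376 probes and -0.073 for the 50 miRNA probes outside the cluster. In limma 0 passed an adjusted p of 0.05, and at an unadjusted p under 0.05 there were 6 higher and 6 lower, where all 152 miRNAs held 10 higher and 8 lower (11.8%). Of the 92 probes, 8 were higher and 5 lower in the fibrotic segment of all 5 sheep, against 13 (8.55%) and 8 (5.26%) of all 152 miRNAs. The members with the smallest p were miR-3956-3p, miR-3956-5p, miR-539-3p and miR-3959-5p, all dim. Both arms of miR-3956 were lower in the fibrotic segment of all 5 sheep, by -0.82 and -0.87, at intensities of at most 5.03. miR-539-3p and miR-3959-5p were higher in all 5 sheep, by 1.98 and 0.77, with Normal intensities of miR-539-3p between 0.65 and 11.8. All 4 had a limma adjusted p of 0.411. The place of MIR3956 relative to the miR-376 genes is not given here.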

How the data were processed

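The authors deposited 1 Cy3 intensity per probe and array, on a linear scale, for 10 arrays with 152 miRNA and 55 control probes. Per the methods these intensities are background corrected and averaged over replicate spots, although log2 transformed data are described there. Scanner and any scaling between arrays are not given in the sources used here. Values below 1 were raised to 1 before log2 was taken. All 152 miRNAs were fitted with limma 3.58.1 in R 4.3.3 with terms for condition and sheep, the latter as a block since both segments came from 1 animal, and Benjamini-Hochberg adjustment ran over all miRNAs without a filter. The correlation of deviations between segments of a sheep was 0.34, 0.90, 0.40, -0.67 and 0.56 in sheep 2, 3, 6, 7 and 10, against a median of -0.090 between different sheep. The fit was also run on simulated data, whose outcome is not given here and backs no result. Single probes and arm differences were also tested by exact sign-flip permutation over sheep. The members, lists and tests were chosen with earlier results of these data known. Named miRNAs were all miR-376 probes, the 5 others most like the bright ones over arrays, and the 4 DLK1-DIO3 members with the smallest p. The DLK1-DIO3 list by name left out miR-382, and a list by position, which includes it, was added after seeing the data. Alternatives were other scalings, floors, a filter on dim miRNAs, no block, a trend, the methods' t-test run over animals and not within each sheep, leaving out each sheep, and other codings of the segments. No mature sequence was given for these miRNAs, so none is printed, and the array build is not named, so no coordinates are given. The 21 single spots per probe were not analysed here.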

Additional observations from a re-analysis of the deposited data

How the results depend on the processing

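No miR-376 probe passed an adjusted p of 0.05 under any of the 18 alternatives, and neither did any other miRNA. Without the replicate block the changes are the same by construction, and the number of miRNAs at an unadjusted p under 0.05 was 8 in place of 18. That number was 7 with a floor of 32, 9 with only miRNAs of a mean log2 of at least 5, 9 and 6 with the methods' t-test paired and unpaired, 3 with the left side coded as treated, and between 6 and 26 with 1 sheep left out. With the left side coded as treated the median change of the 8 probes was 0.025, and the change was -0.29 for miR-376a-3p, -0.44 for miR-376a-5p, 0.14 for miR-376b-5p, -0.047 for miR-376c-3p, 0.78 for miR-376c-5p, 0.097 for miR-376d and -0.11 for miR-376e-3p. The change of miR-376a-3p was -0.0083 after quantile normalization. miR-376b-5p was at 0.12 on arrays centred on control probes, 0.061 in sheep 2 and 3 alone and between -0.24 and 0.012 with 1 sheep left out. miR-376d was at 0.054 on arrays centred on the 75th percentile, 0.20 on control probes, 0.15 with a floor of 32, 0.0024 with log2(value + 1), 0.11 in sheep 2 and 3 alone and between -0.22 and 0.14 with 1 sheep left out. The arm difference of miR-376a changed by 0.058 with a floor of 32, where most of its values lie at the floor. The cause of the other changes was not tested. Centring on the miRNA median moved the median change of all miRNAs by -0.16 and centring on control probes by 0.21. The DLK1-DIO3 list by position had a median of -0.00081, the same as by name. At these signals, the 6 dim probes limit what can be said of paralogs a, b and d, and of the 5p arm and the arm difference of paralog c.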
